A study of Schizosaccharomyces pombe with 6 samples.

Results

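The transcriptome of fission yeast cells given rapamycin was compared with that of untreated cells over every gene with a mean level of at least 1 FPKM (fragments per kilobase of gene model, scaled to the library size) in the 6 libraries of the study. This filter kept 4847 of the 7268 gene models in the files. The cells were Schizosaccharomyces pombe of the wild-type strain 972, which is haploid and of mating type h-, grown in rich YES medium with 3% glucose. Untreated cells and cells given 100 nM rapamycin for 5 h were each sequenced as 2 libraries. A further 2 libraries came from cells given 100 nM rapalink-1 for 5 h, and they are used here for the spread between libraries and as a second drug set beside rapamycin. Per the labels, 2 mother cultures were split into flasks for the 3 conditions. The labels name no deletion, transgene or further agent in any group. The study calls the 2 libraries of a condition biological replicates.

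TOR is a protein kinase that couples growth to nutrients, and it works in a pair of complexes. TORC1 promotes ribosome production and translation, and it restrains autophagy, mating and the response to nitrogen starvation. Rapamycin binds the small protein FKBP12, and this pair then docks on TOR and blocks only part of what TORC1 does, whereas rapalink-1 joins rapamycin to an inhibitor of the kinase's active site. Fission yeast is known for growing in rapamycin at a rate close to normal, so rapamycin slows it less than it slows budding yeast.

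The promoters of several genes described below carry short words known from fission yeast. They are printed 5′ to 3′ on the strand of the gene, from the RefSeq assembly ASM294v3, with the searched word in capitals on whichever strand it lies. The first pair belongs to isp7 and SPAC1399.04c, the genes with the largest decreases, and shows GATAAG (or CTTATC on the other strand), a core that GATA-type nitrogen factors such as Gaf1 recognise.
isp7 (chrI:4183070-4183209, minus strand): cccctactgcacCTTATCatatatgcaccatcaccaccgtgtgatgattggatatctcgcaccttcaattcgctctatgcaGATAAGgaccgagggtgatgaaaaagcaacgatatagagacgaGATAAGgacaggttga
SPAC1399.04c (chrI:1840541-1840580, plus strand): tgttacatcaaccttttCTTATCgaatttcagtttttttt
The next stretch lies before rsv2, a gene with a large increase, and shows TGACGT (or ACGTCA), the core that factors of the Atf1 and Pcr1 type recognise in stress genes. In it the words TGACGT and ACGTCA overlap once, as TGACGTCA.
rsv2 (chrII:3532818-3532897, plus strand): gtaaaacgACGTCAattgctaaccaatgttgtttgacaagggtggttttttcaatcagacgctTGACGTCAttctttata
A further pair shows TTCTTTGTT, the core of the TR box bound by Ste11, the master transcription factor of mating, before mei2 and ste11 itself.
mei2 (chrI:4515145-4515195, minus strand): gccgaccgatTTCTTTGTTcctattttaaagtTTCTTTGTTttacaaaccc
ste11 (chrII:3983236-3983270, plus strand): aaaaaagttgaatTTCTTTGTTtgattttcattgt
The last pair shows the HomolD box, CAGTCACA (or TGTGACTG), which stands in place of a TATA box in many ribosomal protein genes. The box printed for rpl3702 lies within the deposited model of that gene.
rpl3702 (chrIII:1847905-1847944, minus strand): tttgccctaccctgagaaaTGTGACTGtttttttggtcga
rps2801 (chrI:4305866-4305905, plus strand): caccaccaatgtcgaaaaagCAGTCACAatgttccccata

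Reads assigned to genes totalled 19678440 and 17782822 in the untreated libraries, 19959695 and 26321118 in the rapamycin libraries, and 16674483 and 16527483 in the rapalink-1 libraries. Markers of the M mating type, which an h- strain should express, summed to 94.5 and 98.5 FPKM in untreated and 124 and 115 FPKM in rapamycin-treated libraries, with mfm3 listed at 0 throughout. The 2 markers of the P mating type found in the files summed to 6.37 and 5.83 FPKM without the drug and 4.68 and 5.53 FPKM with it. The 4 markers of meiosis summed to 10.1 and 11.3 FPKM against 10.6 and 12.2 FPKM, with spo6 listed at 0. Of 5145 protein-coding genes, 437 (8.49%) were listed at 0 in all 6 libraries, including 24 genes of cytosolic ribosomal proteins. Other gene models overlapped at least 95% of the model for 542 protein-coding genes, of which 409 (75.5%) were listed at 0, against 14 of 3917 (0.357%) where the overlap was under 50%. The reads of such genes are not analysed here, and fewer cells of a kind and less RNA per cell cannot be told apart in any value below.

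Differences are given as log2 fold changes of rapamycin over untreated on a log2(FPKM + 1) scale, which understates the change of low genes. They were tested with limma across all genes, and an adjusted p of at most 0.05 is called past the threshold. By this test 17.7% of the tested genes passed, with 10.4% of the tested genes higher with rapamycin and 7.28% lower. Most changes were small, since the median was 0.0048 and the quartiles -0.09 and 0.12, with a median standard error of 0.06. Increases of at least 1.2-fold passed for 318 genes (6.56%), and decreases of that size for 81 (1.67%). The direction moved with the level of the gene. At 1 to 5 FPKM, 26 genes were higher and 3 lower of 562 tested. At 5 to 20 FPKM these counts were 75 and 17 of 846, at 20 to 100 FPKM they were 270 and 171 of 2341, and at 100 to 500 FPKM they were 118 and 128 of 854. At 500 FPKM and above, 17 were higher and 34 lower of 244, with a median of -0.11.

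**Figure D1:**
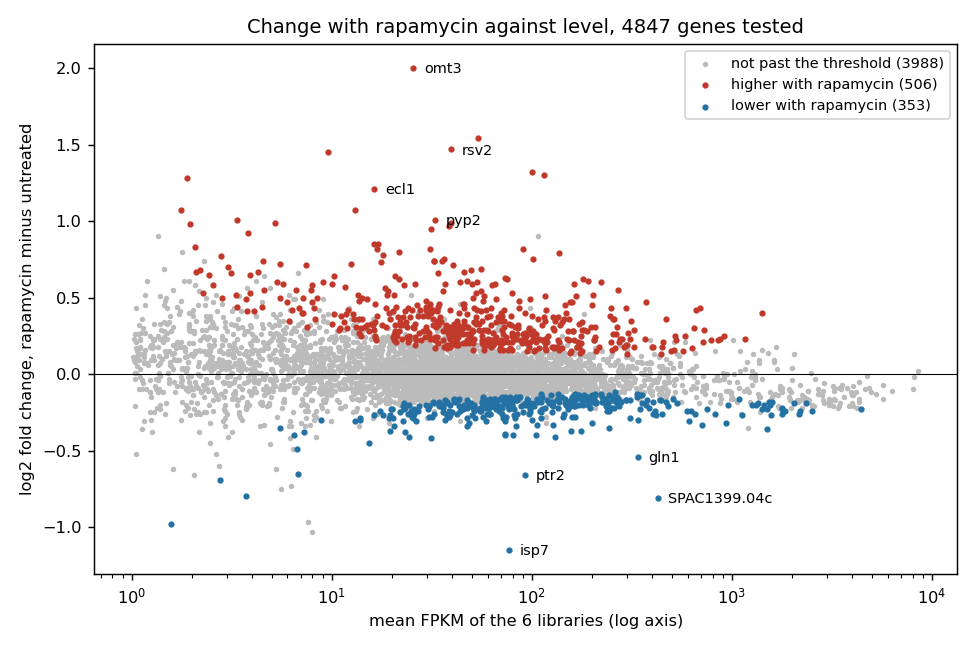
Each point is a gene among the 4847 tested. The x axis is its mean FPKM over the 6 libraries (log axis) and the y axis its log2 fold change with rapamycin, with the 506 higher and 353 lower genes coloured. Increases reach 2.00 for omt3, decreases reach -1.15 for isp7 among the labelled genes, and the genes above 500 FPKM sit mostly below 0.

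Protein-coding genes supplied 464 of the increases and 343 of the decreases among 4329 tested. Of 474 tested non-coding RNAs, 38 were higher (8.02%) and 9 lower (1.90%), with a median of 0.10. Reads on non-coding RNAs made up 0.370% and 0.372% of the untreated libraries and 0.410% and 0.434% of the rapamycin libraries. The classes that polyA capture should largely remove gave few tested models, namely 13 rRNA genes (1 higher, 0 lower), 13 snoRNA genes (0 past the threshold) and 2 snRNA genes (both higher). The 2 snRNA genes had a median level of 1.76 FPKM, near the filter. All snRNA took 2.54e-05% and 4.5e-05% of the untreated reads and 9.52e-05% and 9.5e-05% of the rapamycin reads, so the snRNA calls rest on very few reads. The part of rRNA carry-over in the few calls of these classes was not tested. rRNA took 0.189% and 0.139% of the untreated reads against 0.203% and 0.243% of the rapamycin reads.

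The largest change of all named genes was that of omt3, an intergenic RNA (SPNCRNA.130, chromosome I, 4516070 to 4517070). Its level was 1.39 and 1.94 FPKM in untreated libraries and 9.37 and 9.83 FPKM with rapamycin. The increase was 2.00 on the log2 scale (SE 0.12, adjusted p = 0.000106, limma). The meiRNA sme2, the RNA partner of the meiosis regulator Mei2, was at 2.63 and 4.19 FPKM and rose to 6.92 and 9.36 FPKM (log2 fold change 1.07, SE 0.19, adjusted p = 0.00824, limma). Without rapamycin replicate 2 the adjusted p of sme2 was 0.0591. The RNAs SPNCRNA.99 and SPNCRNA.431 rose by 0.75 and 0.72 on the log2 scale, and the call of SPNCRNA.431 was lost with DESeq2 and without rapamycin replicate 1. SPNCRNA.99 (chromosome I, 4434321 to 4434475, minus strand) lies upstream of the sfp1 gene (4431869 to 4434012, minus strand), which also rose. In the opposite direction, SPNCRNA.1444, SPNCRNA.630, SPNCRNA.403 and SPNCRNA.488 changed by -0.65, -0.49, -0.40 and -0.38, with adjusted p values of 0.0271, 0.0391, 0.0296 and 0.0217 from limma. These calls were weak. They held under 6, 7, 7 and 7 of the 13 alternatives that tested them, and SPNCRNA.1444, SPNCRNA.403 and SPNCRNA.488 were called by neither edgeR nor DESeq2.

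The 14 large increases of protein-coding genes described here ranged from 0.82 to 1.47, and 13 of them stayed past the threshold under each of the 15 alternative settings. The other, SPBC1271.08c, lay below the filter of 10 FPKM and passed under the 14 settings in which it was tested. The gene rsv2 encodes a zinc finger transcription factor known for stationary phase and spores. It was at 12.1 and 15.1 FPKM in untreated and 36.2 and 42.1 FPKM in rapamycin-treated libraries (log2 fold change 1.47, SE 0.10, adjusted p = 0.000175, limma). Other models, among them a histone antisense transcript, overlap 37.2% of rsv2, and the promoter stretch printed above lies within its deposited model. The gene ecl1, known for extending chronological lifespan when overexpressed, was at 9.98 and 10.9 FPKM and rose to 26.4 and 24.5 FPKM (log2 fold change 1.21, SE 0.07, adjusted p = 0.000106, limma). Neither gene's groups overlapped, which the choice of genes required, and 31.1% of all tested genes were higher without overlap.

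Signalling and regulatory genes were also among these increases. The tyrosine phosphatase gene pyp2, whose product switches off the stress kinase Sty1, was at 13.7 and 14.9 FPKM without rapamycin and 28.1 and 31.3 FPKM with it. The predicted transcription factor gene sfp1, whose budding yeast namesake controls ribosomal genes, went from 22.9 and 26.1 FPKM to 47.8 and 50.7 FPKM. The log2 fold changes were 1.01 (SE 0.08) for pyp2 and 0.99 (SE 0.07) for sfp1. The telomere cap gene ten1 stood at 16.7 and 20.5 FPKM and then at 39.8 and 33.5 FPKM. The sulfiredoxin gene srx1, whose product repairs over-oxidised peroxiredoxin, stood at 9.27 and 12.3 FPKM and then at 17.3 and 22.9 FPKM. Their log2 fold changes were 0.95 (SE 0.10) and 0.85 (SE 0.14).

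The remaining large increases were in metabolic and little studied genes. The gene aes1, annotated as an enhancer of RNA-mediated silencing (chromosome II, 70156 to 71310), was at 52.6 and 53.2 FPKM in untreated and 139 and 127 FPKM in rapamycin-treated libraries. A predicted amino acid transporter, SPCC794.04c, went from 6.30 and 6.40 FPKM to 11.6 and 12.9 FPKM, and a predicted NADPH-hemoprotein reductase, SPCC330.03c, from 23.6 and 24.9 FPKM to 45.4 and 41.7 FPKM. The other members of this set were SPBC1271.08c, SPBC19C7.04c, SPCC737.04, SPBC725.03 and SPCC4G3.03. SPBC1271.08c was low, at 3.85 and 3.93 FPKM untreated and 12.3 and 12.2 FPKM treated, and other models overlap 61.6% of it.

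The 15 largest decreases were smaller, from -1.15 to -0.37, and 8 of them stayed past the threshold under every one of the 15 alternatives. The gene isp7 encodes an oxygenase-family protein that regulates amino acid uptake downstream of TOR. Its level was 48.1 and 76.0 FPKM in untreated and 22.1 and 32.1 FPKM in rapamycin-treated libraries, a fall of 1.15 on the log2 scale (SE 0.22, adjusted p = 0.0104, limma). The predicted uracil phosphoribosyltransferase gene SPAC1399.04c, of the uracil salvage route, fell from 129 and 179 FPKM to 81.8 and 91.1 FPKM (log2 fold change -0.81, SE 0.16, adjusted p = 0.0111, limma). For both genes the untreated libraries were far apart, and the adjusted p was as high as 0.0582 for isp7 and 0.0598 for SPAC1399.04c over the alternatives. Neither was past the threshold without the intensity trend or without rapamycin replicate 1.

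The peptide transporter gene ptr2 fell from 79.5 and 99.1 FPKM to 53.1 and 58.4 FPKM, and the glutamine synthetase gene gln1, which assimilates ammonium, from 338 and 354 FPKM to 241 and 231 FPKM. The log2 fold changes were -0.66 (SE 0.11) for ptr2 and -0.54 (SE 0.07) for gln1, with adjusted p values of 0.00616 and 0.00277 from limma. Smaller decreases were those of the transporter genes SPBC36.01c (spermidine family, -0.45), mfs3 (-0.40), the vitamin B6 importer gene bsu1 (-0.39) and the predicted amino acid permease SPCC584.13 (-0.38). The carbonic anhydrase gene nce103 fell from 137 and 145 FPKM to 99.6 and 112 FPKM. The mitotic activator gene slp1, an APC coactivator, went from 36.2 and 32.4 FPKM to 23.3 and 27.3 FPKM. The genes msa1, mri1, prp5, ies4 and SPBPB7E8.01 completed the set, and slp1, msa1, bsu1, SPBC36.01c and SPCC584.13 each lost the call under at least 1 alternative.

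**Figure D2:**
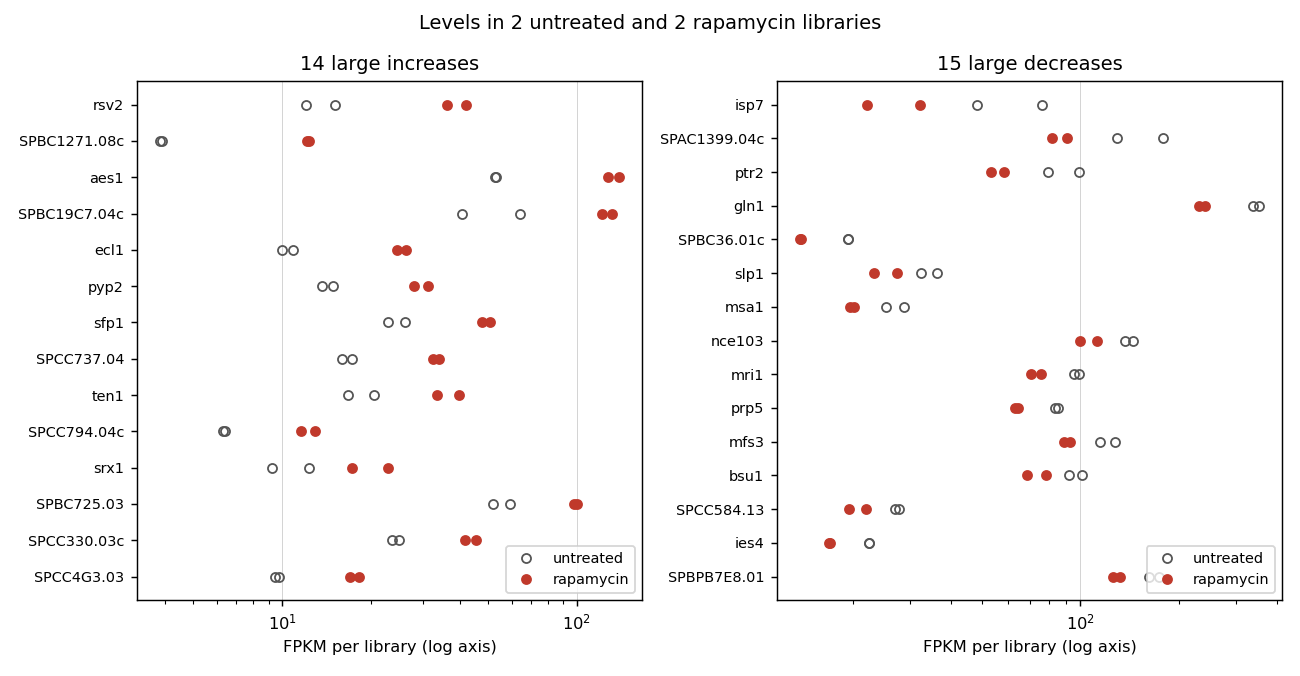
FPKM of each library (x axis, log) for 14 protein-coding genes with large increases (left) and the 15 with the largest decreases (right), with open points for the 2 untreated and filled points for the 2 rapamycin libraries. No gene's groups overlap, which the choice of genes required, and the gaps are wider on the left, where log2 fold changes reach 1.47, than on the right, where most lie near -0.40.

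Among the drug's own target genes no change passed the test. The kinase genes tor1 and tor2 were at 16.2 and 17.3 FPKM and at 20.4 and 20.7 FPKM in untreated libraries, and at 16.6 and 17.2 FPKM and 20.9 and 19.9 FPKM with rapamycin. The FKBP12 gene fkh1 was at 573 and 582 FPKM against 594 and 556 FPKM. Their log2 fold changes were 0.02 (SE 0.08), -0.01 (SE 0.06) and -0.0011 (SE 0.05), so each difference was smaller than its standard error. Of 7 tested subunits of the TOR complexes, 1 passed, toc1, which went from 50.0 and 52.3 FPKM to 62.1 and 57.1 FPKM (log2 fold change 0.22, SE 0.05, adjusted p = 0.0231, limma). The call of toc1 was lost under 4 alternatives, among them the fits without untreated replicate 1 and without rapamycin replicate 1. Of 18 upstream regulators and downstream kinases, such as the Rheb gene rhb1 and the TSC genes tsc1 and tsc2, 0 passed with limma, and their log2 fold changes lay between -0.18 and 0.14. At an unadjusted p under 0.05 there were 4 of these 18, and edgeR called 1 and DESeq2 0. The nuclear FKBP gene fkbp39 rose from 375 and 332 FPKM to 505 and 469 FPKM (log2 fold change 0.47, SE 0.06, adjusted p = 0.00251, limma).

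The translation machinery leaned lower. Of 113 tested genes of cytosolic ribosomal proteins, 22 were lower and 0 higher (19.5% past the threshold, against 17.7% of all genes in either direction and 7.28% lower), with a median of -0.17. The log2 fold change was below 0 for 109 of the 113, and both rapamycin libraries lay below both untreated libraries for 102, against 32.8% of all tested genes. The gene rps29 went from 284 and 269 FPKM to 233 and 201 FPKM, and rpl3702 from 841 and 815 FPKM to 716 and 600 FPKM. Their log2 fold changes were -0.35 (SE 0.06) and -0.33 (SE 0.07). For rpl4102 and rps2801 they were -0.29 and -0.27. The count depended on single libraries and on the test. Leaving out rapamycin replicate 1 gave 91 lower genes and leaving out rapamycin replicate 2 gave 4. Leaving out untreated replicate 1 gave 1 and leaving out untreated replicate 2 gave 2. edgeR gave 44 and DESeq2 gave 66. Under quantile normalization the median was -0.04, with 11 lower and 1 higher.

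Translation initiation factors also leaned lower. Of 31 tested, 15 were lower and 0 higher (48.4% past the threshold, against 17.7% of all tested genes). The median was -0.15, and it was -0.14 under quantile normalization. The eIF2 alpha gene tif211 fell from 406 and 391 FPKM to 338 and 308 FPKM (log2 fold change -0.30, SE 0.05). An antisense model overlaps 44.7% of tif211. The eIF2 gamma gene tif213 fell from 481 and 473 FPKM to 407 and 399 FPKM (-0.24, SE 0.04). The cap-binding eIF4E gene tif45 fell from 283 and 268 FPKM to 238 and 233 FPKM (-0.22, SE 0.04). When a library was left out, between 3 and 9 initiation factor genes were lower. Of 12 elongation and release factor genes, sup35 and tef102 were lower (-0.20 each, with 60.6% of tef102 overlapped) and SPBC460.02c was higher (0.22). The count of lower genes was 4 without rapamycin replicate 1 and 0 without any other single library. Of 18 tRNA ligase genes, 4 were lower and 0 higher (22.2% past the threshold, against 17.7% of all tested genes). The lower genes were led by the glutamate ligase gene gus1 (388 and 386 FPKM against 330 and 327 FPKM). With a library left out this count was 1 to 2.

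Genes that build ribosomes went the other way. Genes of ribosome biogenesis process rRNA and assemble the subunits in the nucleolus. Of 101 tested, 35 were higher and 6 lower, with a median of 0.20, and 81 lay above 0. The share past the threshold was 40.6%, against 17.7% of all tested genes (10.4% higher and 7.28% lower). The U3 snoRNP gene rrp9 went from 34.3 and 30.9 FPKM to 52.7 and 55.0 FPKM (log2 fold change 0.71, SE 0.09, adjusted p = 0.00233, limma). The nucleolar gene gar2, a nucleolin relative, went from 69.9 and 60.6 FPKM to 103 and 98.3 FPKM (0.62, SE 0.07, adjusted p = 0.00121, limma), although its antisense model overlaps 72.4% of it. The Rrp14 gene SPBC947.07 rose by 0.58 and SPAC890.05 by 0.55, the latter with 89.0% of its model overlapped. The lower members included tif6 (-0.26), which is also counted among initiation factors. The higher members numbered 39 when untreated replicate 1 was left out, but 12 when untreated replicate 2 was, 14 when rapamycin replicate 1 was and 10 when rapamycin replicate 2 was.

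Calls among RNA polymerase genes lay mostly in the polymerase III list (31.2% past the threshold, against 17.7% of all tested genes). Of 16 tested genes of RNA polymerase III and its factors, rpc1 (0.40), rpc34 (0.34), the repressor gene maf1 (0.31) and rpc11 (0.23) were higher, and rpc53 (-0.26) was lower. Maf1 holds polymerase III back when TORC1 is off, and the higher members thus hold enzyme subunits as well as their repressor. For maf1 the log2 fold change lay between 0.26 and 0.35 over the alternatives. Its call was lost whichever untreated or rapamycin library was left out. Of 11 polymerase I genes 1 was lower, rpb6, a subunit shared by the 3 polymerases (284 and 285 FPKM against 248 and 240 FPKM). Of 4 other genes in the polymerase II list 0 passed with limma (2 at an unadjusted p under 0.05, 1 with edgeR and 0 with DESeq2). The shared rpb6 was counted in the polymerase I list only, so the polymerase II and III counts leave it out.

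**Figure D3:**
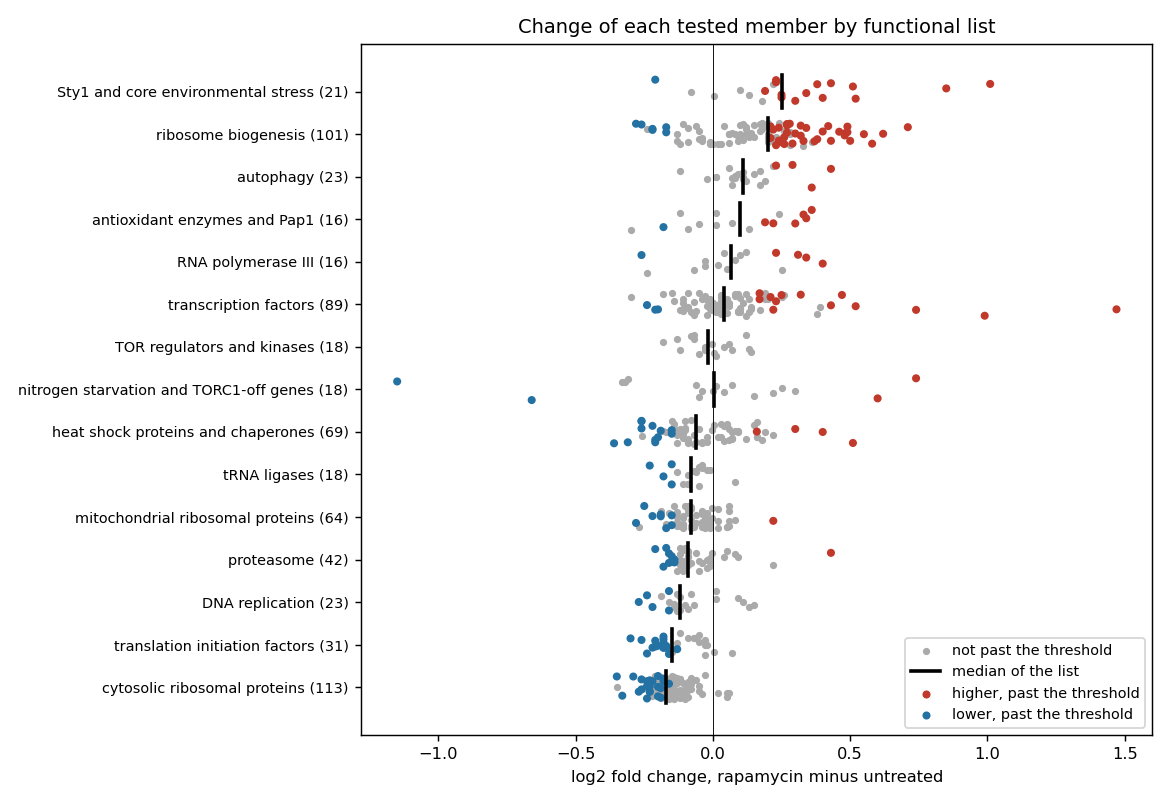
Each point is a tested member of a functional list, on the x axis by its log2 fold change with rapamycin, with blue and red for members past the threshold and a black bar at the list's median. The bar lies at -0.17 for cytosolic ribosomal proteins, at -0.15 for initiation factors, at 0.20 for ribosome biogenesis and at 0.25 for the Sty1 and core stress list.

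Stress genes gave the highest share of members past the threshold among lists of at least 10 tested genes. Of 21 tested members of the Sty1 and core environmental stress list, 14 were higher and 1 lower, with a median of 0.25. The share past the threshold was 71.4%, against 17.7% of all tested genes. Sty1 is the stress-activated kinase of fission yeast, and Atf1 with Pcr1 is the transcription factor it drives. The disaggregase gene hsp104 rose from 89.9 and 101 FPKM to 133 and 137 FPKM (0.51, SE 0.05, adjusted p = 0.00115, limma). The metallothionein gene zym1 rose from 108 and 119 FPKM to 171 and 157 FPKM (0.52, SE 0.06), and hsp9 from 963 and 1109 FPKM to 1379 and 1347 FPKM (0.40, SE 0.07). Among trehalose genes, tps1 was higher by 0.23 and the trehalase gene ntp1 by 0.34, while tpp1 stood at -0.08 (SE 0.04), not past the threshold. The phosphatase genes pyp1 (0.38) and pyp2, which act against Sty1, and the factor genes atf1 (0.23) and pcr1 (0.25) were higher. The kinase gene sty1 itself was at 25.5 and 24.5 FPKM against 27.6 and 27.1 FPKM (0.13, SE 0.06, adjusted p = 0.144, limma), and the kinase gene wis1 above it was lower (-0.21). When a library was left out, between 9 and 13 members were higher and 0 lower.

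The antioxidant list had 6 higher and 1 lower of 16 (43.8% past the threshold, against 17.7% of all tested genes). Higher members were the glutathione transferase genes gst3 (109 and 126 FPKM against 152 and 147 FPKM) and gst2 (109 and 112 FPKM against 138 and 141 FPKM), the superoxide dismutase gene sod1 (518 and 521 FPKM against 639 and 636 FPKM), and the factor gene pap1. The list also counted sod2, which the files describe as a sodium and proton antiporter and which is no antioxidant enzyme. Chaperones as a wider list leaned the other way, with 4 higher and 12 lower of 69 (23.2% past the threshold) and a median of -0.06. The Hsp70 gene ssa2 fell from 1498 and 1519 FPKM to 1230 and 1115 FPKM (-0.36, SE 0.06), and the p23 co-chaperone gene wos2 from 635 and 632 FPKM to 517 and 504 FPKM (-0.31, SE 0.04). Proteasome genes had 8 lower and 1 higher of 42 (21.4% past the threshold, against 17.7% of all tested genes). The higher was the inhibitor gene fub1 (0.43), at 5.39 and 6.12 FPKM untreated and 7.41 and 8.79 FPKM with rapamycin. Other models overlap 57.1% of fub1. Its call was lost with no filter, with quantile normalization, without the intensity trend and with DESeq2. With a library left out, 0 to 2 proteasome genes and 6 to 9 chaperone genes were lower.

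Several of the larger increases lay in the lifespan and transcription factor lists. Of 8 tested genes of the ecl and rsv list, ecl1, ecl2, rsv2 and php3 were higher and 0 lower. The gene ecl2 went from 61.1 and 66.6 FPKM to 81.1 and 89.7 FPKM (0.42, SE 0.07), and ecl3 from 46.4 and 73.4 FPKM to 73.4 and 73.7 FPKM, which did not pass (0.33, SE 0.16). rsv1 was listed at 0 in every library. Of 89 transcription factor and zinc finger genes, 13 were higher and 3 lower, with a median of 0.04. This was 18% past the threshold, near the 17.7% of all tested genes. With a library left out, 5 to 9 were higher and 0 to 1 lower. Besides rsv2 and sfp1, the higher genes included ste11 (0.74), SPBC1348.12 (0.52), the calcineurin-responsive factor gene prz1 (129 and 130 FPKM against 178 and 181 FPKM) and the GATA-type factor gene SPCC1393.08 (196 and 207 FPKM against 271 and 271 FPKM).

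Genes of nitrogen starvation did not move together. Of 18 tested, isp7 and ptr2 were lower, mei2 and ste11 were higher, and 14 did not pass, with a median of 0.004. The share past the threshold was 22.2%, near the 17.7% of all tested genes. edgeR gave 3 higher and 4 lower, and DESeq2 gave 2 higher and 3 lower. The meiosis regulator gene mei2 was low, at 1.71 and 2.01 FPKM untreated and 3.46 and 3.16 FPKM treated (0.60, SE 0.11, adjusted p = 0.00922, limma). The mating factor gene ste11 went from 18.1 and 21.7 FPKM to 29.6 and 38.1 FPKM (0.74, SE 0.13, adjusted p = 0.00714, limma). Uptake genes stood below 0 without passing, namely amt1 (-0.33, SE 0.14), isp4 (-0.32, SE 0.11) and per1 (-0.31, SE 0.10). The amino acid permease gene isp5 stood at 0.30 (SE 0.10), also without passing. Beside the lower gln1, the NAD-dependent glutamate dehydrogenase gene gdh2, which breaks glutamate down, rose from 12.5 and 12.7 FPKM to 18.0 and 19.0 FPKM (0.52, SE 0.06, adjusted p = 0.00207, limma).

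Recycling and uptake genes gave a mixed picture. Of 23 autophagy genes 4 were higher and 0 lower (17.4% past the threshold, against 17.7% of all tested genes), with a median of 0.11. They were atg6 (17.6 and 19.2 FPKM against 24.7 and 25.5 FPKM), atg1802 (24.5 and 22.9 FPKM against 30.2 and 30.9 FPKM), atg14 (0.29) and atg8 (0.23), the ubiquitin-like protein that coats autophagosomes. Of 22 amino acid transporter genes 4 were higher, led by SPCC794.04c and SPCPB1C11.02 (0.67), and 3 lower, SPCC584.13, aat1 and avt3. Of 5 phosphate genes 3 were higher, the acid phosphatase gene pho1 (104 and 126 FPKM against 165 and 183 FPKM), tgp1 (0.41) and pho84 (0.29). Of 7 hexose transporter genes ght7 (0.58), ght3 (0.53) and ght4 (0.25) were higher, and the most abundant, ght8, stood at -0.09 (SE 0.06). None of the hexose transporter calls was robust, since 0 genes were higher whichever library was left out, and 1 under quantile normalization. Leave-outs gave 2 to 3 higher autophagy genes, 0 to 3 higher phosphate genes (0 without rapamycin replicate 2), and 3 higher and 0 to 4 lower amino acid transporter genes.

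Growth and division genes changed little in size. Of 16 mitotic entry genes, cdc2 (50.0 and 47.3 FPKM against 40.7 and 41.3 FPKM) and its cyclin gene cdc13 (180 and 179 FPKM against 153 and 157 FPKM) were lower, as were mik1 (-0.24) and blt1 (-0.25), while cdr1, which acts against Wee1, was higher (0.19). Of 23 DNA replication genes 5 were lower and 0 higher (21.7% past the threshold, against 17.7% of all tested genes), with a median of -0.12. The lower genes included cdc18 (-0.27) and mcm2 (-0.24). With a library left out, 0 to 2 replication genes and 0 to 2 mitotic entry genes were lower, and both counts were 0 without rapamycin replicate 2. Of 30 kinetochore and spindle genes 1 was higher, dma1 (0.19), and of 9 histone genes 0 passed with limma (2 at an unadjusted p under 0.05, 1 with edgeR and 2 with DESeq2). Of 15 glycolytic genes 0 passed with limma, edgeR or DESeq2 (2 at an unadjusted p under 0.05). Of 13 citric acid cycle genes cit1 (0.36) and mdh1 (0.18) were higher (15.4% past the threshold). Of 22 respiratory chain genes 5 were lower and 0 higher (22.7% past the threshold), including cox5 and qcr2 (-0.19 each). Of 64 mitochondrial ribosomal protein genes 8 were lower and 1 higher (14.1% past the threshold), with a median of -0.08. With a library left out, 0 to 3 of them and 0 to 3 respiratory chain genes were lower, and DESeq2 gave 2 and 3.

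The other lists gave few calls, and most of these were lost when a library was left out. The sterol list had erg31 (0.31) and erg25 (0.15) higher and hmg1 (-0.21) and erg4 (-0.14) lower of 16. The iron list had sib2 (0.25) higher of 10, the purine list ade9 (0.20) higher of 9, and the glucan synthase list bgs1 (0.20) higher of 12. In the vacuole list 3 were higher and 2 lower of 30 (16.7% past the threshold, against 17.7% of all tested genes). The higher genes included the carboxypeptidase gene SPAC24C9.08 (0.28). In the arginine and polyamine list arg12 (0.18) and arg11 (0.15) were higher and car2 (-0.23) lower of 7. When a library was left out, 0 genes were higher in the iron, purine, glucan synthase and arginine lists, 0 to 1 in the sterol list and 1 to 2 in the vacuole list. The M-factor gene mfm2 rose from 52.2 and 55.1 FPKM to 78.1 and 69.5 FPKM (0.45, SE 0.06), which was 1 of 5 mating type M genes, and of 4 mating type P genes 0 passed with limma (3 at an unadjusted p under 0.05, 2 with edgeR and 0 with DESeq2).

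The promoter words were counted in 250 bases before the RefSeq gene start, on both strands, for 4312 tested protein-coding genes. A match is a description and not a shown binding site. The word TGACGT was present before 56 of 458 genes higher with rapamycin (12.2%), 19 of 343 lower genes (5.54%) and 5.38% of all genes. Among the 21 Sty1 and core stress genes it was present in 5 (23.8%). The shorter word CCCCT (or AGGGG) was before 13.5% of the higher genes, 7.58% of the lower genes and 8.26% of all. GATAAG was before 12.4% of higher, 9.04% of lower and 10.7% of all genes, and before 7 of 18 nitrogen genes (38.9%). TTCTTTGTT was before 1.53% of higher, 1.17% of lower and 1.6% of all genes. The HomolD box was before 76 of 113 ribosomal protein genes (67.3%) and 2.67% of all, and before 1 of 101 ribosome biogenesis genes.

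Rapamycin and rapalink-1 were given at the same dose for the same time, and their libraries were compared directly. This was the only pair of compounds compared here. Rapalink-1 differs from rapamycin by carrying a linked kinase inhibitor. Between the drugs 37.2% of the tested genes differed, 19.7% higher with rapalink-1 and 17.4% lower. Of the 15 largest decreases with rapamycin, 9 were higher with rapalink-1 than with rapamycin, 1 was lower and 5 did not pass. This comparison shares the rapamycin libraries with the choice of these genes, so the counts are a description. In the rapalink-1 libraries isp7 was at 156 and 127 FPKM, SPAC1399.04c at 1171 and 898 FPKM, ptr2 at 142 and 121 FPKM and gln1 at 466 and 394 FPKM. Each of these values lay above both untreated and both rapamycin libraries. Rapalink-1 over rapamycin, the log2 fold changes were 2.36 (adjusted p = 7.85e-05, limma) for isp7, 3.56 (adjusted p = 1.18e-06, limma) for SPAC1399.04c, 1.22 for ptr2 and 0.86 for gln1.

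Of the 14 large increases described, 6 were higher still with rapalink-1, 3 were lower and 5 did not pass. Among those 5, the 95% interval of the log2 difference between the drugs was -0.14 to 0.22 for SPBC1271.08c and -0.28 to 0.03 for sfp1. It was -0.15 to 0.32 for ten1, -0.32 to 0.33 for srx1 and 0.02 to 0.76 for SPBC19C7.04c. Differences of these sizes thus remain possible. The intervals are not adjusted for the number of genes, and that of SPBC19C7.04c left out 0 although its adjusted p was 0.095 (limma). The genes rsv2 (66.2 and 63.7 FPKM with rapalink-1) and pyp2 (51.5 and 57.7 FPKM) were among the 6 that were higher still. The gene ecl1 was at 13.0 and 12.9 FPKM with rapalink-1, a log2 difference of -0.92 from rapamycin (adjusted p = 3.59e-05, limma), and SPCC330.03c was at 25.2 and 24.3 FPKM (-0.79). In ribosome biogenesis 80 of 101 tested members had lower levels under rapalink-1 than under rapamycin by the test and 2 had higher levels, with a median difference of -0.36. For example, gar2 was at 61.1 and 57.9 FPKM with rapalink-1 (-0.74 against rapamycin), near its untreated levels, and fkbp39 was at 273 and 272 FPKM, below them. The gene mei2 was at 23.1 and 21.0 FPKM with rapalink-1 and omt3 at 71.8 and 58.4 FPKM, each higher than with rapamycin, by 2.42 and 2.63 on the log2 scale.

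**Figure D4:**
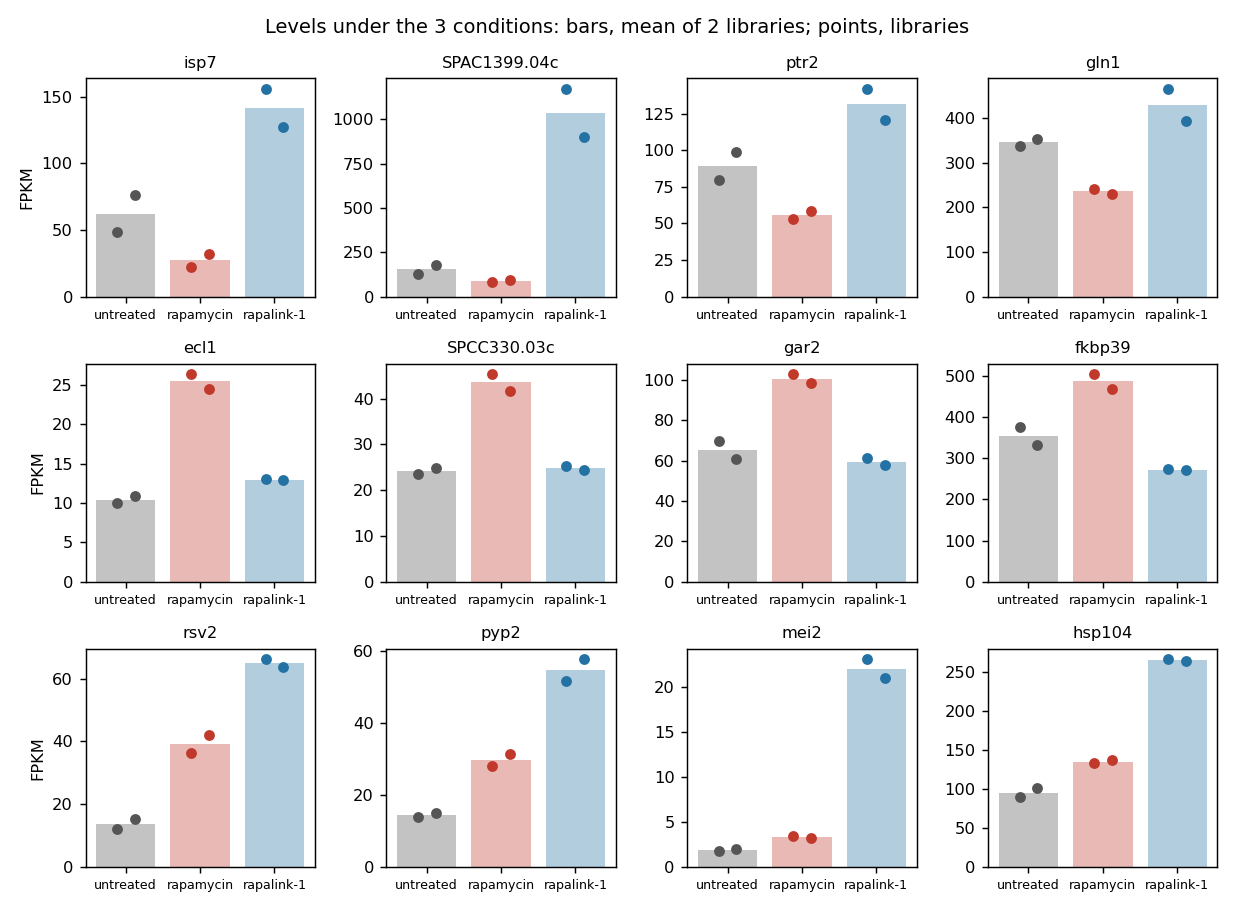
FPKM (y axis from 0) of 12 named genes under the 3 conditions, with bars for the mean of 2 libraries and points for the libraries. With rapamycin isp7, SPAC1399.04c, ptr2 and gln1 lie below untreated and with rapalink-1 above it, while ecl1, SPCC330.03c, gar2 and fkbp39 are highest with rapamycin.

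The tests rest on 2 libraries per condition, for which the smallest two-sided permutation p of a single gene is 0.333, so they draw their spread from all genes. The deposited values do not say whether the labels' replicate numbers mark shared starting cultures, and p-values measure the spread between these libraries only. Where antisense or neighbouring models overlap a named gene, reads of the pair cannot be told apart, since the strand setting is not given in the sources used here.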

How the data were processed

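Libraries were made by polyA capture and sequenced as 150 bp paired-end reads. Per the labels' processing notes the authors used HISAT2 2.0.5, StringTie 1.3.3b, featureCounts 1.5.0-p3 and DESeq2. The genome build and strand setting are not given in the sources used here. The authors deposited FPKM for 7268 genes in each library. Multiplied by model length and a library constant, FPKM came out as whole reads in 100% of cases (largest gap 5.2e-10), and these equalled every count the authors deposited in their tables of comparisons. The fold changes, p-values and adjusted p-values in those tables were not used.

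After scaling by median-of-ratios factors, log2(FPKM + 1) was fitted with limma 3.58.1 in R 4.3.3 over all 6 libraries, with 1 mean for each condition and an eBayes trend on intensity. Genes needed a mean of at least 1 FPKM, and p-values were adjusted by Benjamini-Hochberg over the 4847 tested genes (threshold 0.05). Named genes are the 15 protein-coding and 4 other genes with the largest change in each direction (past the threshold, mean of at least 5 FPKM, groups not overlapping), up to 4 members past the threshold in each of 42 lists, and, in lists of up to 25 members, others as values, with tor1, tor2 and fkh1. Of the 15 increases, 1 gene is not reported here, so the range given and plotted for increases covers the other 14 only and is not that of all genes. A few further list members (such as prz1, SPCC1393.08, rpc11 and aat1) and the 12 genes plotted under 3 conditions were chosen after their values were seen. Lists were made from gene descriptions or symbols. The genes, lists and tests were chosen with earlier results of these data known. Alternatives were a pseudocount of 0.1, no filter, a mean of at least 10 FPKM, no scaling, quantile normalization, only the 4 libraries compared, the replicate number as a block, no intensity trend, only protein-coding genes, each library left out, and count tests of the whole reads with DESeq2 1.42.0 or edgeR 4.0.16. Scripts were tested on simulated data. Of 7268 identifiers, 6814 were found in ASM294v3, and 99.5% of these share a start or end with it.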

Additional observations from a re-analysis of the deposited data

How the results depend on the processing

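The 859 genes past the threshold (506 higher, 353 lower) became 413 without the intensity trend (291 higher, 122 lower), and between 240 and 487 when a library was left out (179 to 308 higher, 61 to 228 lower), the lowest without rapamycin replicate 2. Increases of at least 1.2-fold then numbered 165 to 263 and decreases 40 to 97. The share of higher genes among those past the threshold was 58.9%, and it was 51% with quantile normalization, 70.5% without the trend and 74.6% without rapamycin replicate 2. The replicate number did not pair the libraries (correlation of deviations -0.0112 between untreated and rapamycin), and with the replicate block 864 genes passed. edgeR called 991 genes and DESeq2 791 on the recovered reads. Of 129 named genes past the threshold, 115 were tested under all 15 alternatives, and 52 of these stayed past it throughout. The other 14 were tested under 13 or 14 alternatives, and 4 of them stayed past it in each. None of the 129 changed direction. The 3 target genes, never past the threshold, changed sign. tor1 was -0.03 with quantile normalization and between -0.03 and 0.06 with a library left out (-0.0042 without rapamycin replicate 2). tor2 was 0.0036 with a mean of at least 10 FPKM, 0.00069 with protein-coding genes only, and between -0.04 and 0.03 with a library left out (0.0022 without untreated replicate 2). fkh1 was 0.01 with a mean of at least 10 FPKM and with protein-coding genes only, 0.002 with edgeR, and between -0.05 and 0.05 with a library left out. The cause of these movements was not tested.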
